A study of Mus musculus with 18 samples.

Results

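MicroRNAs were counted in the testicles, lungs and eyes of male C57BL/6 mice aged 8 to 12 weeks, an inbred laboratory strain, for which the labels name no treatment, with 3 libraries from the left and 3 from the right organ of each kind. The 18 libraries gave 6 per organ, and the 8 miRNAs followed here were the arms of the miR-15/16 family and of its X-linked relatives: mmu-miR-15a-5p, mmu-miR-15b-5p, mmu-miR-16-5p, mmu-miR-195a-5p, mmu-miR-497a-5p, mmu-miR-322-5p, mmu-miR-322-3p and mmu-miR-503-5p, named without the mouse prefix from here on. They were chosen because they share the seed of miR-15 and miR-16 or lie in a cluster with a miRNA that does, out of 1431 miRNAs listed in the count tables. All 8 passed the filter on low counts, which kept 642 of the 1431. The organs were bulk tissue, so fewer cells of a type and less RNA per cell cannot be told apart. Whether libraries of different sides or organs came from the same animals is not in the labels. Where they did, n = 6 per organ counts some animals more than once, and SEs and p values are then too small.

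A miRNA guides an Argonaute protein to messenger RNAs whose 3′ ends pair with its seed, bases 2 to 8 of the mature strand, and those messengers are then repressed. The miR-15/16 family is known in mouse and human cells as a brake on cell division, with cyclins D and E, cell cycle kinases and the survival factor Bcl2 among its targets. In humans, loss of the pair miR-15a and miR-16-1 is a frequent lesion of chronic lymphocytic leukaemia. MiR-195a is known from the mouse heart, where it accompanies the withdrawal of newborn cardiomyocytes from the cell cycle. MiR-322, called miR-424 in humans, and miR-503 are known to rise when myoblasts stop dividing and differentiate.

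The mature sequences show which of the 8 have a seed in common and where they part. They were taken from RefSeq for the assembly GRCm38.p6, in which all 8 were found, and the capitals mark the seed.
miR-15a-5p: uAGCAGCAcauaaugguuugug
miR-15b-5p: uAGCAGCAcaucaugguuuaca
miR-16-5p: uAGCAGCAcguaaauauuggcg
miR-195a-5p: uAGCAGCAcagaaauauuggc
miR-497a-5p: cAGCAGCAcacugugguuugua
miR-322-5p: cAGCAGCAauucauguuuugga
miR-503-5p: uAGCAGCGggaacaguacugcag
miR-322-3p: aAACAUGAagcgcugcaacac

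The seed AGCAGCA was common to 6 of the 8, from miR-15a-5p to miR-322-5p, which are called the seed group below. MiR-503-5p differs from it in the last base of the seed, and miR-322-3p, the opposite arm of the miR-322 hairpin, has an unrelated seed. Outside the seed the members diverge to different degrees. MiR-15a-5p and miR-15b-5p differ at 4 of 22 positions, while miR-16-5p and miR-195a-5p differ at 2 of the 21 positions that both have. How reads matching both were counted is not given in the sources used here, so a part of the counts of that pair could have been exchanged. RefSeq holds 4 further mature miRNAs with this seed, miR-6342, miR-6353, miR-6419 and miR-195b, which were not analysed here.

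The members come from 4 clusters. Mir15a (chr14:61632027-61632110) and Mir16-1 (chr14:61631880-61631972) lie within 231 bases on the minus strand, in an intron and an exon of the noncoding gene Dleu2. Mir15b (chr3:69009772-69009835) and Mir16-2 (chr3:69009902-69009996) lie within 225 bases on the plus strand, in an intron of Smc4, which encodes a condensin subunit. Mir497 (chr11:70234717-70234800) and Mir195a (chr11:70235042-70235135) lie within 419 bases on the plus strand and overlap no longer gene in GENCODE M21. Mir322 (chrX:53054255-53054349) and Mir503 (chrX:53053984-53054054) lie within 366 bases on the minus strand of the X chromosome, at one end of a cluster of 6353 bases that goes on with Mir351, Mir542, Mir450-2, Mir450-1 and Mir450b. All positions are in GRCm38.p6.

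MiR-16-5p is the single member made at more than 1 locus, and its mature strand is the same from both. The hairpins show this; capitals mark the shared strand and the rest is lower case.
Mir16-1: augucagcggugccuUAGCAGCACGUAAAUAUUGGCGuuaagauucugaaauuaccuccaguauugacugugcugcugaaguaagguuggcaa
Mir16-2: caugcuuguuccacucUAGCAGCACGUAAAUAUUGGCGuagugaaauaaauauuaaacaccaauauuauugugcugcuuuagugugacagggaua

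The values are counts per miRNA, given here as counts per 1000000 (CPM), scaled by the trimmed mean of M values (TMM). Totals were 952608 to 1893132 counts for testicle libraries, 2538402 to 2790471 for lung libraries and 2451484 to 2680204 for eye libraries. A floor of 3 counts was therefore 1.58 to 3.15 CPM in testicle libraries, 1.08 to 1.18 CPM in lung libraries and 1.12 to 1.22 CPM in eye libraries, for counting error only. Marker miRNAs fitted the organ labels: all 5 testicle, all 5 lung and all 7 eye markers had their highest mean in the organ of their name. Right lung 1 stood apart from the other lungs. In it, 31.6% of tested miRNAs lay more than 2-fold from the median of the other libraries of the organ. In the other 17 libraries this share was 3.58% to 15.1%. Some results, but not all that right lung 1 enters, are also given without it.

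The seed group took a larger share of the miRNA counts in testicles and lungs than in eyes. The 6 miRNAs together held 6.57% ± 0.897 of a library's counts in the testicle, 5.51% ± 1.11 in the lung and 2.06% ± 0.159 in the eye (SD, n = 6 each). Testicle libraries spanned 5.45% to 7.78%, lung libraries 3.36% to 6.44% and eye libraries 1.91% to 2.33%. The testicle and lung ranges overlapped, and every eye library lay below both. The lowest lung value was that of right lung 1, and without it the lung share was 5.94% ± 0.397 (SD, n = 5).

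The make-up of the seed group differed between organs as well. MiR-16-5p, the most abundant member in every organ, made up 58.8% ± 3.44 of the group's counts in the testicle, 42.3% ± 3.08 in the lung and 74.7% ± 2.09 in the eye. MiR-322-5p held 18.7% ± 3.90 in the testicle, 30.0% ± 4.97 in the lung and 6.95% ± 0.876 in the eye. The pair of miR-195a-5p and miR-497a-5p held 7.49% ± 0.653, 18.8% ± 1.06 and 6.87% ± 0.888 in testicle, lung and eye (SD, n = 6). The organs did not overlap in the part of miR-16-5p, which was 54.3% to 64.3% in testicle libraries, 36.5% to 45.2% in lung libraries and 72.1% to 77.4% in eye libraries. MiR-15b-5p held 8.00% ± 0.735 in the testicle, 3.03% ± 0.635 in the lung and 1.47% ± 0.159 in the eye. MiR-15a-5p held 6.98% ± 1.29, 5.90% ± 1.99 and 9.98% ± 1.23 in testicle, lung and eye. Its mean was thus above that of miR-15b-5p in lung and eye and below it in the testicle. Without right lung 1, the lung parts were 43.5% ± 1.28 for miR-16-5p, 28.1% ± 2.26 for miR-322-5p and 6.67% ± 0.749 for miR-15a-5p (SD, n = 5).

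**Figure D1:**
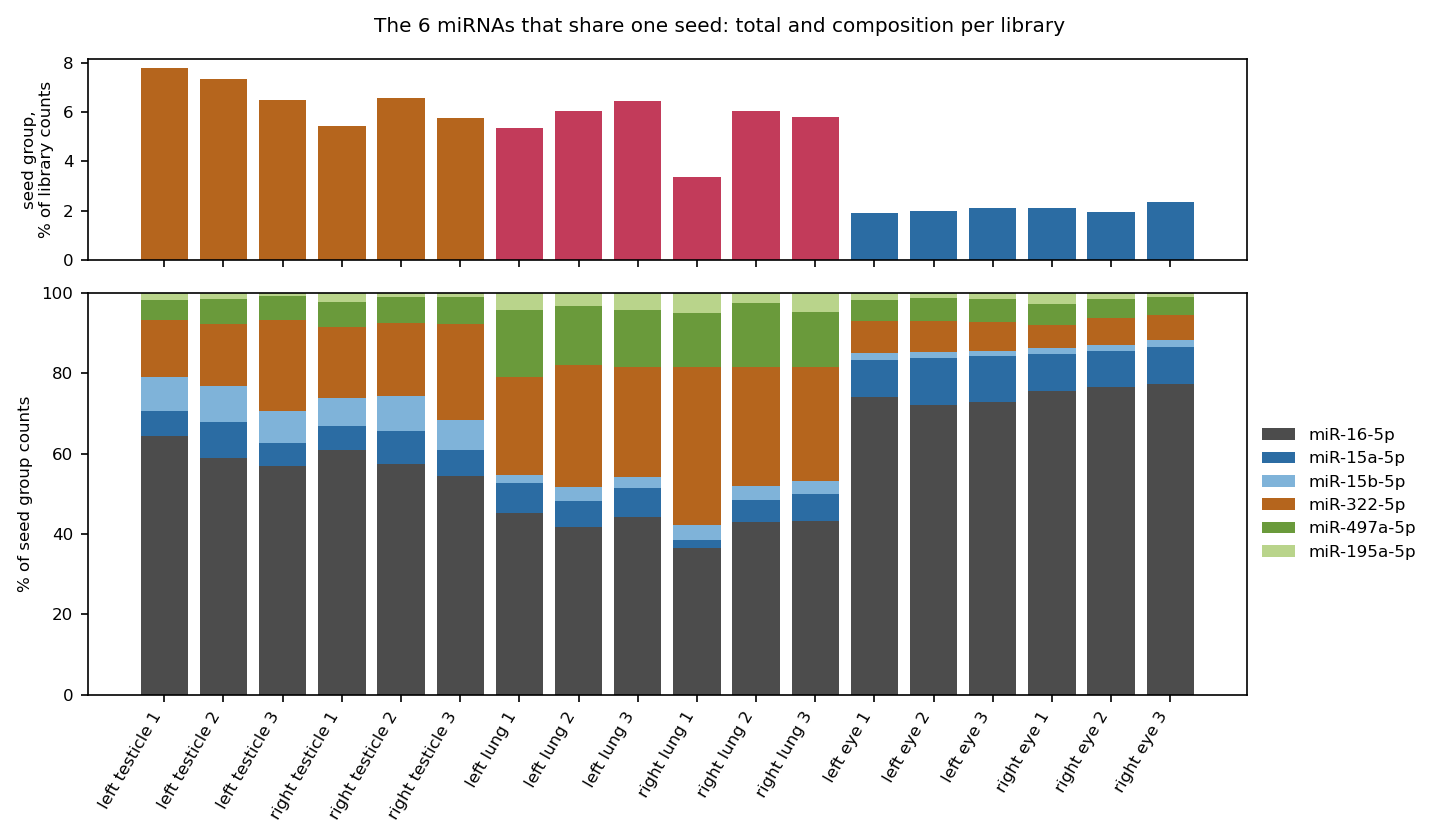
Upper bars give the 6 miRNAs with the seed AGCAGCA as a percentage of all miRNA counts of each library, and lower bars split those counts by miRNA, in percent. Eye libraries are the lowest in the upper panel (1.91% to 2.33%), and the part of miR-322-5p, miR-497a-5p and miR-195a-5p is widest in the lung.

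Each member was compared between organs with edgeR's quasi-likelihood test, fitted on all 642 miRNAs, with left and right averaged before organs were set against each other. In the testicle, all 8 members were higher than in the eye, where 39.1% of all tested miRNAs were called higher. In the lung, 7 of the 8 were higher than in the eye, where 24.5% of all tested miRNAs were called higher. Against the lung, the testicle had 3 members higher, 3 lower and 2 that were not called, and among all tested miRNAs 49.1% were called higher and 27.4% lower. The median change of the 8 members on the log2 scale was 2.03 for testicle against eye, 2.54 for lung against eye and 0.17 for testicle against lung, beside medians over the 642 tested miRNAs of -0.05, 0.00 and 0.90.

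**Figure D2:**
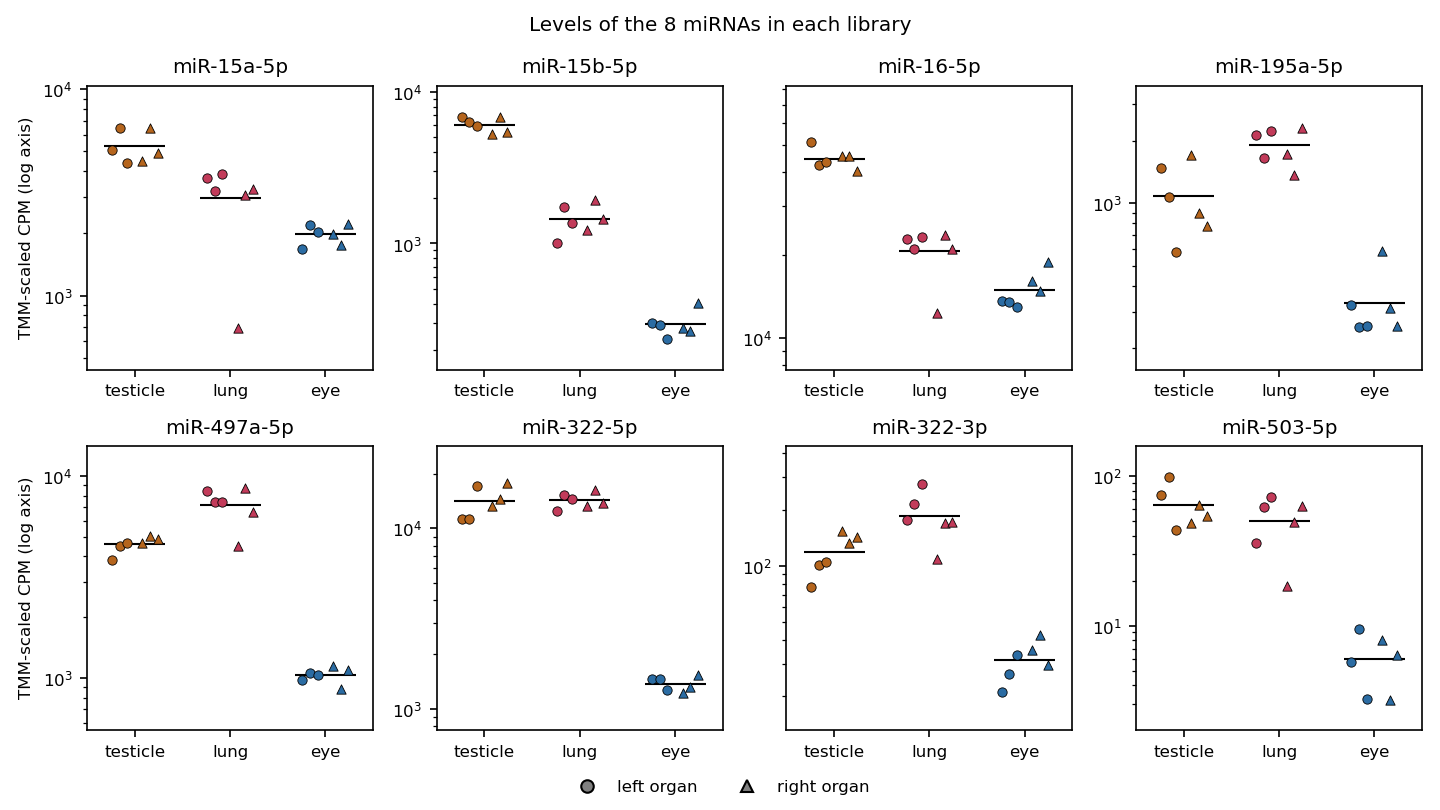
TMM-scaled CPM (log axis, its range set per panel) of the 8 miRNAs in each library of testicle, lung and eye; circles are left and triangles right organs, and lines are means over 6 libraries. The eye mean is the lowest in every panel, with miR-15b-5p at 5245 to 6827 in testicles, 1004 to 1935 in lungs and 235 to 406 in eyes, and right lung 1 is the low triangle in the lung for miR-15a-5p and miR-16-5p.

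MiR-16-5p, the core member of the family, averaged 44698 ± 3759 CPM in the testicle, 20719.8 ± 4270.4 CPM in the lung and 14981 ± 2220.0 CPM in the eye (SD, n = 6 each). Its libraries spanned 40182 to 51138 CPM (median 44428) in testicles, 12312 to 23730.0 (median 21983) in lungs and 12934 to 18863 (median 14177) in eyes. Every testicle library lay above every lung and eye library, and lungs and eyes overlapped through right lung 1. MiR-16-5p was higher in testicle than in lung (log2 fold change 1.11, SE 0.14; edgeR adjusted p 2.6e-06) and than in eye (1.59, SE 0.15; edgeR adjusted p 3.6e-08). Lung was above eye by 0.47 (SE 0.14; edgeR adjusted p 0.0085), by 0.79 without right lung 1 and by 0.74 without right eye 3. With the right libraries alone it was 0.16 (edgeR adjusted p 0.66) and was not called.

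MiR-15a-5p, which is transcribed with Mir16-1, averaged 5299.8 ± 940.3 CPM in the testicle, 2973 ± 1156 CPM in the lung and 1984 ± 222 CPM in the eye (SD, n = 6 each). Its lowest, median and highest values were 4408, 4978 and 6485 CPM in testicles, 699, 3257 and 3875 CPM in lungs and 1689, 2017 and 2232 CPM in eyes. The testicle libraries were above all others, and 5 of 6 lung libraries were above every eye library while right lung 1 was below them all. Testicle was higher than eye (log2 change 1.42, SE 0.28; edgeR adjusted p 0.00018) and higher than lung (0.87, SE 0.27; edgeR adjusted p 0.0086). Lung against eye gave 0.55 (SE 0.27; edgeR adjusted p 0.091) and was not called. It was called without right lung 1 (0.98; edgeR adjusted p 1.3e-05), as also without any 1 of right eye 2, right eye 3, left lung 1, left lung 2, right testicle 1 or right testicle 3 (0.76 to 1.23). With DESeq2 (0.71), without the filter on low counts (0.63) and with left libraries alone (1.48) it was called too. The call of testicle above lung also depended on the processing. It held under 2 of 6 scalings of the libraries, whose values were 0.28 to 0.87. With left libraries alone (0.19) or without right eye 2 (0.24) it was lost. The median of all tested miRNAs in that comparison was 0.90.

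MiR-15b-5p, which comes from the Smc4 intron with Mir16-2, had the widest separation of organs among the members. It averaged 6087 ± 674 CPM in the testicle, 1455 ± 337 CPM in the lung and 296 ± 58.2 CPM in the eye (SD, n = 6 each), and no 2 organs overlapped. Testicle was 20.6-fold above eye (log2 change 4.37, SE 0.20; edgeR adjusted p 1.2e-11) and 4.19-fold above lung (2.07, SE 0.18; edgeR adjusted p 2.5e-08). Lung was 4.93-fold above eye (2.30, SE 0.18; edgeR adjusted p 9.3e-09). The opposite arm of its hairpin, miR-15b-3p, had 45.9 ± 5.77, 22.0 ± 3.46 and 7.27 ± 2.35 CPM in testicle, lung and eye, the same order of organs.

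The cluster of miR-497a and miR-195a was highest in the lung. MiR-497a-5p averaged 4601 ± 409.8 CPM in the testicle, 7216 ± 1521 CPM in the lung and 1035 ± 94.1 CPM in the eye (SD, n = 6 each). Its testicle libraries spanned 3855 to 5039 CPM, its lung libraries 4529 to 8772 CPM and its eye libraries 885 to 1152 CPM. Testicle and lung overlapped through right lung 1 alone, and eyes lay below both. MiR-497a-5p was lower in testicle than in lung (log2 fold change -0.65, SE 0.15; edgeR adjusted p 0.0010), higher in testicle than in eye (2.15, SE 0.16; edgeR adjusted p 2.1e-09) and higher in lung than in eye (2.80, SE 0.16; edgeR adjusted p 1.8e-10).

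Its partner miR-195a-5p averaged 1084 ± 427 CPM in the testicle, 1898 ± 368 CPM in the lung and 331 ± 129 CPM in the eye (SD, n = 6 each). The lowest, median and highest libraries held 580.4, 984 and 1701 CPM in testicles, 1369, 1928 and 2289 CPM in lungs and 252, 285 and 586 CPM in eyes. Lung and eye were separated, while testicles overlapped both: left testicle 3 lay just under right eye 1, and left testicle 1 and right testicle 1 reached into the lung range. It was lower in testicle than in lung (log2 fold change -0.81, SE 0.27; edgeR adjusted p 0.013). Against the eye, testicle was higher by 1.73 (SE 0.28; edgeR adjusted p 2.8e-05) and lung by 2.54 (SE 0.29; edgeR adjusted p 6.0e-07).

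The X-linked guide arms were higher in testicle and in lung than in eye, and were not called between testicle and lung. MiR-322-5p averaged 14222 ± 2853 CPM in the testicle, 14286 ± 1437 CPM in the lung and 1377 ± 126 CPM in the eye (SD, n = 6 each), with ranges of 11197 to 17805, 12403 to 16388 and 1218 to 1528 CPM. Testicle and lung ranges lay over each other, and the eye was far below. The log2 fold change was 3.37 for testicle against eye (SE 0.16; edgeR adjusted p 1.2e-11) and 3.38 for lung against eye (SE 0.16; edgeR adjusted p 1.5e-11). Testicle against lung gave -0.01 (SE 0.14; edgeR adjusted p 0.97) and was not called.

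MiR-503-5p was scarce, with 500 counts summed over testicle libraries, 944 over lung and 94 over eye. It averaged 64.1 ± 20.5 CPM in the testicle, 50.5 ± 20.2 CPM in the lung and 6.02 ± 2.54 CPM in the eye (SD, n = 6 each). Testicles spanned 43.5 to 99.0 CPM, lungs 18.5 to 72.8 CPM and eyes 3.20 to 9.51 CPM, so testicle and lung overlapped and eyes did not reach them. Testicle was higher than eye (log2 change 3.40, SE 0.37; edgeR adjusted p 2.9e-07) and lung was higher than eye (3.05, SE 0.36; edgeR adjusted p 1.1e-06). Testicle against lung was not called (0.34, SE 0.33; edgeR adjusted p 0.35).

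MiR-322-3p, the scarcer arm of the miR-322 hairpin, averaged 118 ± 28.9 CPM in the testicle, 185 ± 54.5 CPM in the lung and 31.3 ± 7.45 CPM in the eye (SD, n = 6 each). Its ranges were 77.3 to 154 CPM in testicles, 109 to 273 CPM in lungs and 21.2 to 42.4 CPM in eyes, with testicle and lung overlapping. It was lower in testicle than in lung (log2 fold change -0.65, SE 0.19; edgeR adjusted p 0.0053), but was at 0.011 with the right libraries alone. Against the eye it was higher by 1.90 in testicle (SE 0.20; edgeR adjusted p 1.5e-07) and by 2.55 in lung (SE 0.20; edgeR adjusted p 7.0e-09).

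The members were also described by whether libraries of 2 organs overlapped. For testicle against eye, 7 of the 8 members had every testicle library above every eye library, the exception being miR-195a-5p, where 34.6% of all tested miRNAs did. For lung against eye this held for 6 of 8, not for miR-15a-5p and miR-16-5p, against 17.3% of all tested miRNAs. For testicle against lung it held for miR-15a-5p, miR-15b-5p and miR-16-5p, 3 of 8, against 38.6% of all, and no member had every testicle library below every lung library, against 18.1% of all.

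**Figure D3:**
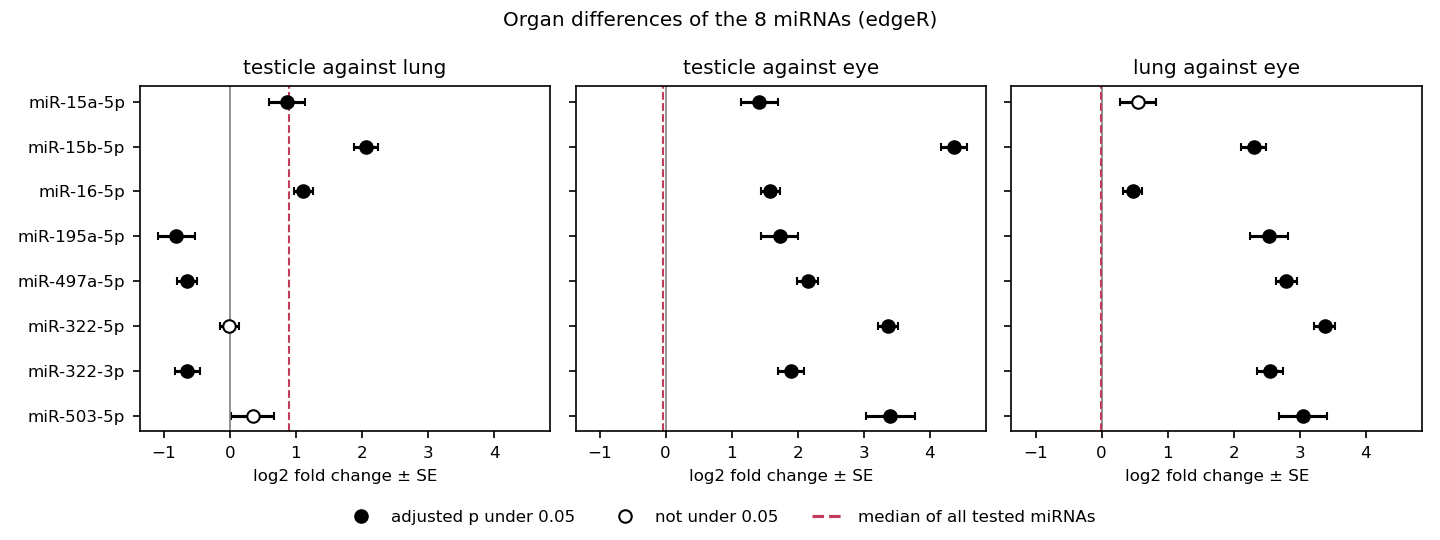
Log2 fold change ± SE of each of the 8 miRNAs in testicle against lung, testicle against eye and lung against eye; filled points have an edgeR adjusted p under 0.05 and the dashed line is the median of all 642 tested miRNAs. In testicle against lung that median is 0.90, with miR-15a-5p (0.87) beside it and miR-15b-5p (2.07) to its right, while the other panels have medians near 0 and all points to the right.

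The comparison of testicle and lung moved with the scaling of the libraries. Over 6 scalings the log2 change of the median tested miRNA ran between 0.31 and 0.90, and the share of calls that were higher in testicle between 53.4% and 64.2%. Relative to that median, miR-15b-5p stood at 1.17 to 1.20, miR-16-5p at 0.22 to 0.25 and miR-15a-5p at -0.04 to 0.01. MiR-195a-5p stood at -1.71 to -1.68, miR-497a-5p at -1.54 to -1.52, miR-322-3p at -1.55 to -1.53, miR-322-5p at -0.91 to -0.88 and miR-503-5p at -0.56 to -0.51 relative to the same median. A scaling moves all miRNAs of a library alike, so these distances from the median are nearly fixed by construction. MiR-15a-5p was called higher in testicle under 2 of the 6 scalings, and miR-322-5p was called lower under 4 of the 6.

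Leaving out right eye 2 had a similar effect, the cause of which was not tested. Testicle against lung then gave 0.24 for miR-15a-5p and -0.63 for miR-322-5p, the first no longer called and the second called lower. MiR-16-5p was at 0.49, miR-195a-5p at -1.44, and miR-497a-5p and miR-322-3p at -1.27, all still called, and lung against eye gave 1.15 for miR-16-5p. With the right libraries alone, 3 against 3, none of the members was called lower in testicle than in lung (edgeR), where miR-195a-5p was at -0.58, miR-497a-5p at -0.38 and miR-322-3p at 0.011 on the log2 scale. With the left libraries alone, miR-15a-5p was at 0.19 and not called, and without the filter on low counts miR-322-3p, at -0.67, was not called (edgeR).

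For lung against eye the median of all tested miRNAs ran between 0.00 and 0.51 over the scalings, and the share of calls higher in lung between 40.9% and 57.2%. Except for miR-15a-5p, called in 4 of the 6 scalings, the members were called higher in lung under each of the 6. For testicle against eye the median ran between -0.56 and 0.12, and all 8 members were called higher in testicle under each.

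Ratios of 2 miRNAs within a library do not depend on the scaling, and they set the members against each other. The 8 ratios were compared between the 3 pairs of organs, which made 24 two-sided exact permutation tests of 6 against 6 libraries, adjusted together; the smallest p that these can give is 0.00216, or 0.0047 after adjustment, and 14 of the 24 passed. For miR-15a-5p, the pair of miR-195a-5p and miR-497a-5p, and the X-linked guide arms, no ratio to the cluster partner was called different between organs. The log2 ratio of miR-16-5p to miR-15a-5p averaged 3.09 ± 0.28 in the testicle, 2.95 ± 0.60 in the lung and 2.91 ± 0.21 in the eye (SD, n = 6), and none of its differences passed (lowest adjusted p 0.33, exact permutation). Right lung 1 was at 4.14 in this ratio and the other lungs at 2.59 to 2.96. Without right lung 1, lung minus eye was -0.20 (adjusted p 0.16, exact permutation). With 1 library left out in turn, testicle minus lung was 0.07 to 0.38 (lowest adjusted p 0.055, exact permutation). The log2 ratio of miR-195a-5p to miR-497a-5p averaged -2.18 ± 0.66, -1.92 ± 0.47 and -1.71 ± 0.44 in testicle, lung and eye, and that of miR-322-5p to miR-503-5p 7.82 ± 0.69, 8.26 ± 0.67 and 7.90 ± 0.60. None of these differences passed either (lowest adjusted p 0.31, exact permutation).

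Other ratios differed between organs. The log2 ratio of miR-15b-5p to miR-15a-5p, close relatives from chromosomes 3 and 14, averaged 0.21 ± 0.19 in the testicle, -0.88 ± 0.94 in the lung and -2.76 ± 0.25 in the eye (SD, n = 6). In plain counts, the median library held 1.13 miR-15b-5p per miR-15a-5p in the testicle, 0.488 in the lung and 0.146 in the eye. The difference was 2.97 for testicle minus eye and 1.88 for lung minus eye, both with an adjusted exact permutation p of 0.0047. Testicle minus lung gave 1.09 (adjusted p 0.036, exact permutation). Right lung 1 was the only lung above 0 in this ratio, at 0.81, and without it the difference was 1.43 (adjusted p 0.0047, exact permutation). Without any 1 of the other lung or testicle libraries it was 0.89 to 1.14, with exact permutation adjusted p values above 0.05 and up to 0.078.

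MiR-16-5p is made beside miR-15b-5p and also beside miR-15a-5p, and its counts cannot be assigned to either locus. The log2 ratio of miR-16-5p to miR-15b-5p averaged 2.88 ± 0.14 in the testicle, 3.83 ± 0.42 in the lung and 5.67 ± 0.16 in the eye, with every pair of organs passing (adjusted p 0.0047 each, exact permutation). A median of 7.34 miR-16-5p were counted per miR-15b-5p in testicle libraries, 13.3 in lung libraries and 50.8 in eye libraries. The log2 ratio of miR-195a-5p to miR-16-5p averaged -5.46 ± 0.51, -3.44 ± 0.43 and -5.56 ± 0.47 in testicle, lung and eye. The lung thus stood apart from the testicle (testicle minus lung -2.02) and from the eye (lung minus eye 2.12), each with an adjusted exact permutation p of 0.0047, while testicle minus eye was 0.10 (adjusted p 0.79, exact permutation). For miR-322-5p to miR-16-5p the averages were -1.67 ± 0.37, -0.51 ± 0.33 and -3.44 ± 0.21, and all 3 differences passed (adjusted p 0.0047 each, exact permutation). Right lung 1 was at 0.11 in this ratio and the other lungs at -0.88 to -0.46.

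The arms of the miR-322 hairpin also changed against each other. The log2 ratio of miR-322-5p to miR-322-3p averaged 6.92 ± 0.33 in the testicle, 6.32 ± 0.41 in the lung and 5.48 ± 0.45 in the eye (SD, n = 6). The median library held 117 counts of the 5p arm per count of the 3p arm in testicles, 76.2 in lungs and 44.1 in eyes. Testicle minus eye was 1.44 (adjusted p 0.0047, exact permutation), lung minus eye 0.84 (adjusted p 0.017, exact permutation) and testicle minus lung 0.60 (adjusted p 0.037, exact permutation). The last of these held without right lung 1, right lung 2 or right testicle 1, at 0.66 to 0.72, and missed the threshold without any 1 of the other 9 lung or testicle libraries, at 0.48 to 0.63.

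**Figure D4:**
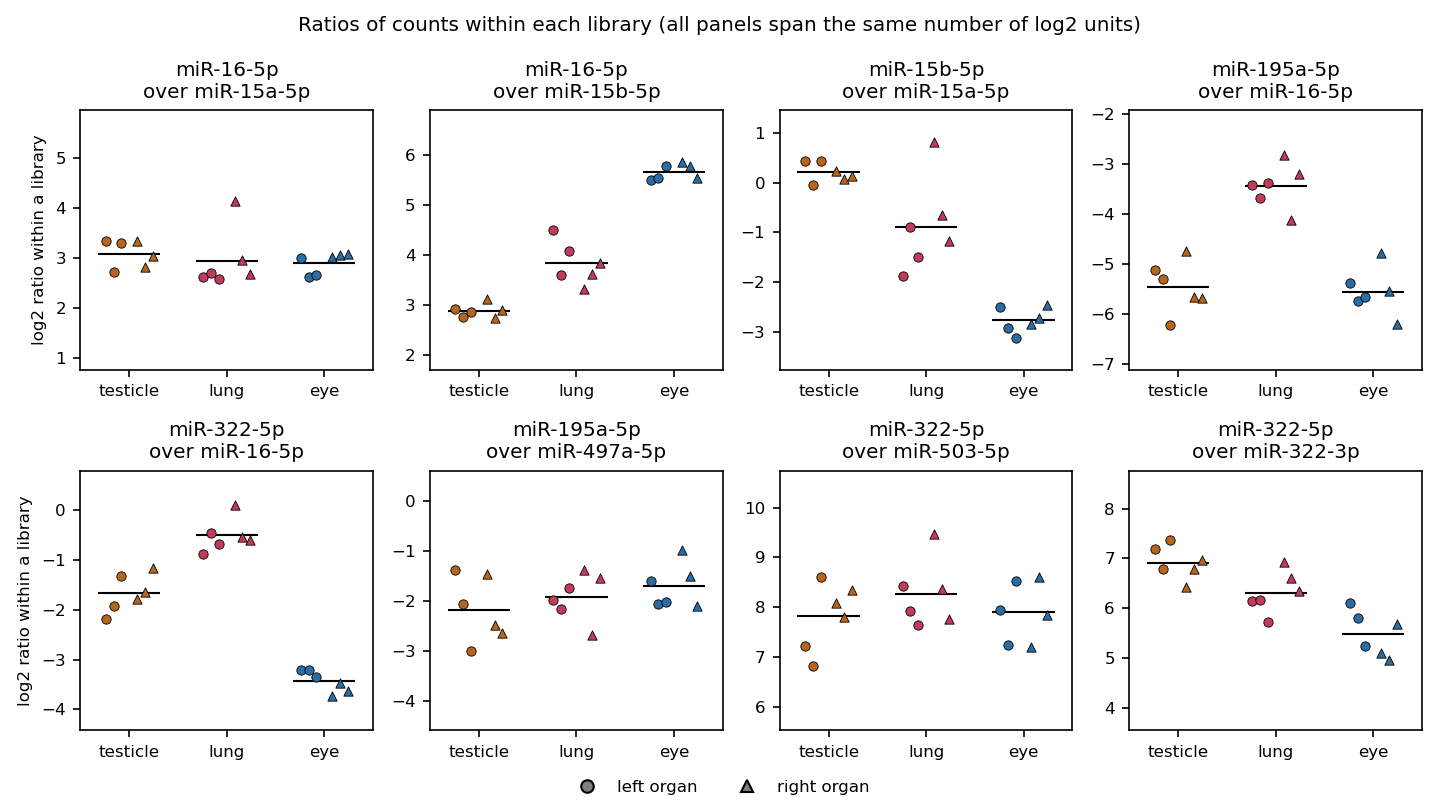
Log2 ratio of 2 miRNA counts within each library (8 panels that span the same number of log2 units); circles are left and triangles right organs, and lines are means over 6 libraries. MiR-16-5p over miR-15a-5p averages 2.91 to 3.09 in the 3 organs, with right lung 1 at 4.14 above the other lungs (2.59 to 2.96). MiR-15b-5p over miR-15a-5p averages 0.21 in testicle, -0.88 in lung and -2.76 in eye.

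The loci of miR-16-5p can be told apart by their opposite arms, which differ in sequence. MiR-16-2-3p, from the Smc4 intron, had 63 counts summed over testicle libraries, 35 over lung and 15 over eye. MiR-16-1-3p, from Dleu2, had 1 count in all 18 libraries, so the ratio of these arms could not be followed over organs. MiR-16-2-3p was higher in testicle than in lung (log2 fold change 2.11, SE 0.43; edgeR adjusted p 0.00030) and than in eye (3.29, SE 0.51; edgeR adjusted p 1.6e-05), the same directions as miR-15b-5p of its cluster. With left libraries alone testicle against lung was 1.26 (edgeR adjusted p 0.071) and was not called. Lung against eye (1.18, SE 0.56; edgeR adjusted p 0.082) was not called either, but it was under 4 of the 5 other scalings (1.26 to 1.83) and without any 1 of left eye 2, right eye 2, left lung 1, right lung 1, right lung 2, right testicle 1 or right testicle 3 (1.38 to 1.86). Its lung levels, 0.386 to 3.97 CPM, and its eye levels, 0.359 to 2.66 CPM, lay around the floor. It passed the filter on low counts through the testicle libraries, which favours a higher value there. The directions shared with miR-15b-5p are therefore no separate support.

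Of the 5 opposite arms with enough counts to test, 2 were higher and 2 lower in testicle than in lung, 4 were higher in testicle than in eye and 4 were higher in lung than in eye. Over all tested miRNAs the shares called were, in the same order, 49.1%, 27.4%, 39.1% and 24.5%. MiR-15a-3p was the one not called in testicle against lung (-0.51) or testicle against eye (0.90). Of 18 fits with 1 library left out, 2 called it in the first and 7 in the second comparison (edgeR). The fit without right lung 1 was among both, at -0.74 and 1.10. MiR-15a-3p averaged 5.03, 7.17 and 2.62 CPM in testicle, lung and eye, highest in the lung, while miR-15a-5p was highest in the testicle. It was scarce, with 2 to 16 counts in testicle libraries, 3 to 42 in lungs and 3 to 13 in eyes. MiR-195a-3p had 13.3 ± 3.40, 28.3 ± 18.4 and 6.13 ± 0.975 CPM in testicle, lung and eye, the order of its guide arm, and its lung mean was 21.3 ± 7.52 CPM without right lung 1. MiR-503-3p, printed here because it outnumbered its guide arm in the lung, reads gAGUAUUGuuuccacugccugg with the seed in capitals. It averaged 22.1 ± 3.95 CPM in the testicle, 118 ± 106 CPM in the lung and 3.29 ± 1.04 CPM in the eye (SD, n = 6 each). Without right lung 1 the lung mean was 74.5 ± 9.71 CPM (SD, n = 5). It was lower in testicle than in lung (log2 fold change -2.29, SE 0.34; edgeR adjusted p 1.2e-05; -1.76 without right lung 1), where miR-503-5p was not called. The median library held 2.75 counts of miR-503-5p per count of miR-503-3p in testicles, 0.675 in lungs and 1.75 in eyes. Right lung 1 was at 0.056 and the other lungs at 0.506 to 1.05. This ratio was looked at after its values were seen and is given without a test.

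The other miRNAs of the X-linked cluster were at their highest in the lung. They comprise miR-351, which resembles miR-125, and miR-542 and the miR-450 group, of which 8 mature arms could be tested. In testicle against eye all 8 were higher, with a median log2 fold change of 2.46. In lung against eye all 8 were higher, at 3.33 to 3.84. Some were scarce: eye libraries held 0 to 3 counts of miR-450a-1-3p, 0 to 6 of miR-351-3p and 3 to 6 of miR-542-3p. Testicle libraries held 2 to 10 counts of miR-450a-1-3p. These arms passed the filter on low counts through organs other than the eye, which favours a higher value there. Among all tested miRNAs 39.1% and 24.5% were called higher in these 2 comparisons, and 27.4% were called lower in testicle against lung. In testicle against lung 7 of 8 were lower, at -2.25 to -0.64, and miR-351-3p was not called (-0.12, SE 0.42; edgeR adjusted p 0.81). MiR-351-5p, miR-542-3p and miR-450a-1-3p were not called in that comparison with right libraries alone, at -0.56, -0.82 and -0.80, nor was miR-351-5p without the filter, at -0.64. MiR-542-5p, the most abundant of them, averaged 539 ± 98.2 CPM in the testicle, 1612 ± 269 CPM in the lung and 136 ± 16.9 CPM in the eye (SD, n = 6 each). MiR-450b-5p averaged 11.8 ± 2.46 CPM in the testicle, 56.5 ± 11.5 CPM in the lung and 4.15 ± 1.14 CPM in the eye. MiR-322-5p, at 3.38, lay inside the span of these neighbours in lung against eye. In testicle against lung, miR-322-5p at -0.01 and miR-503-5p at 0.34 lay above the 8 neighbours, of which miR-351-3p was the highest.

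Left and right organs were not told apart by any member. With edgeR, none of the 8 was called in left against right testicle, lung or eye, where 0% of 464, 430 and 487 tested miRNAs were called. At an unadjusted p under 0.05, edgeR gave 36 miRNAs in testicle (7.76%), 1 in lung (0.233%) and 18 in eye (3.7%), and DESeq2 called none of the members either. The single member below that unadjusted limit was miR-322-3p in the testicle, at 77.3, 101 and 104 CPM in left and 154, 132 and 142 CPM in right testicles (log2 fold change -0.41, SE 0.16; edgeR unadjusted p 0.046, adjusted p 0.57). Left libraries were all below right ones there. A joint test over the 3 organs for unequal left to right differences called none of the 8 and 0% of 642 miRNAs, and the lowest unadjusted edgeR p of a member was 0.016, for miR-322-3p.

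Right lung 1 was unlike the other lungs in some members and like them in others. MiR-15a-5p was at 699 CPM in it against 3058 to 3875 CPM in the other 5 lungs, and miR-16-5p at 12312 against 21018 to 23730.0 CPM. MiR-497a-5p was at 4529 against 6645 to 8772 CPM, miR-322-3p at 109 against 169 to 273 CPM and miR-503-5p at 18.5 against 36.0 to 72.8 CPM. These 5 were below the range of the others, while miR-15b-5p (1227 CPM), miR-195a-5p (1731 CPM) and miR-322-5p (13242 CPM) were within it. Opposite arms went both ways. The scarce miR-15a-3p was below the other lungs, at 1.16 against 6.17 to 12.3 CPM, as was miR-16-2-3p, at 0.386 against 1.08 to 3.97 CPM. MiR-15b-3p was within their range. Above it, miR-503-3p stood at 333 CPM against 65.9 to 90.8 CPM, and miR-195a-3p at 63.3 against 9.98 to 29.2 CPM. Its total of 2597041 counts was like that of the other lungs, and its red cell, leukocyte and striated muscle markers summed to 2134, 9181 and 114 CPM, of which the leukocyte sum was just below the 9346 to 12728 CPM of the other lungs. Its summed eye markers, 6597 CPM, were above their 2595 to 4599 CPM. The part of these in the member values was not tested.

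**Figure D5:**
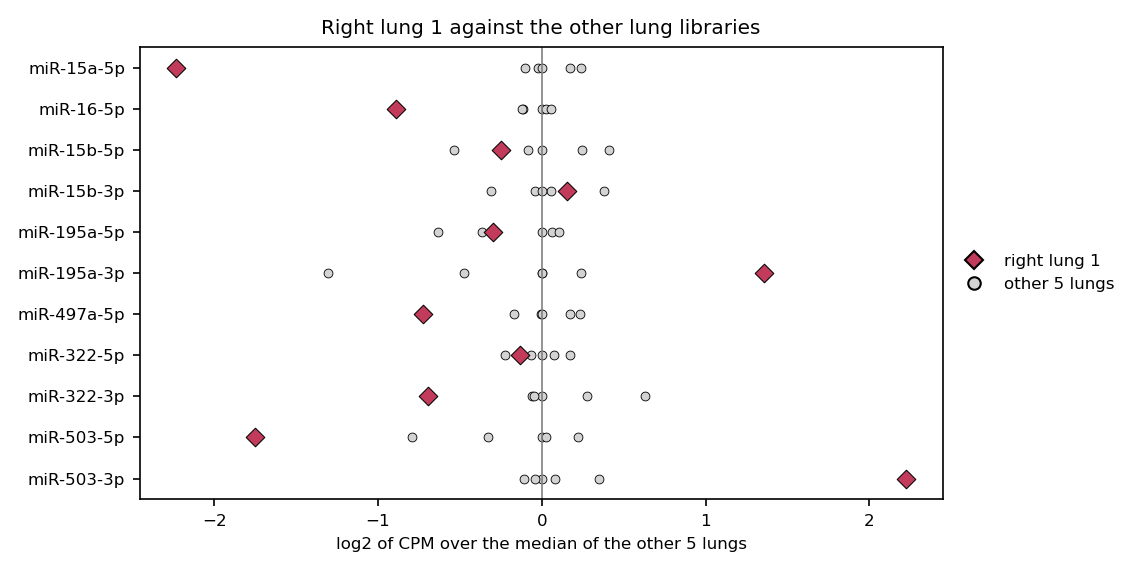
Log2 of CPM over the median of the other 5 lungs, for members and 3 of their opposite arms; diamonds are right lung 1 and grey circles the other lungs. Right lung 1 is at -2.23 for miR-15a-5p and 2.23 for miR-503-3p, and inside the grey points for miR-15b-5p, miR-195a-5p and miR-322-5p. MiR-15a-3p and miR-16-2-3p, scarce and lower in right lung 1 than in the other lungs, are not shown.

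Red cells are known to be rich in miR-16-5p and miR-15a-5p, and red cell miRNAs were read beside both. The 5 names of that list, miR-451a at their head, were all detected, with none at 0 in any organ. They summed to 235 to 10511 CPM in testicle libraries, 1501 to 5836 CPM in lung libraries and 1356 to 4176 CPM in eye libraries. Left testicle 1 had 235 CPM of these, with 51138 CPM of miR-16-5p and 5053 CPM of miR-15a-5p. Right testicle 1 had 359.7 CPM of these, with 45589 CPM of miR-16-5p and 4490.3 CPM of miR-15a-5p. The other 4 testicles had 5328 to 10511 CPM of red cell miRNAs, 40182 to 45589 CPM of miR-16-5p and 4408 to 6485 CPM of miR-15a-5p. Left testicle 1, poorest in red cell miRNAs, was the highest testicle in miR-16-5p, whereas miR-15a-5p was highest in left testicle 2 and right testicle 2, with 6413 and 9497 CPM of red cell miRNAs. The part of blood in either miRNA was not tested. Leukocyte miRNAs, a list of 4 headed by the lymphoid miR-150-5p, summed to 855 to 1447 CPM in testicles, 9181 to 12728 CPM in lungs and 1081 to 1624 CPM in eyes. They were highest in the organ where miR-195a-5p and miR-497a-5p were highest, and their part in that was not tested.

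The miRNAs whose levels over the 18 libraries were most like those of a member differed between members. For miR-16-5p and miR-15a-5p the closest of 303 abundant miRNAs was miR-19b-3p, of the miR-17-92 group, with Pearson r of 0.97 and 0.93 on log2(CPM + 1). For miR-15b-5p the closest were miR-34c-3p, miR-34c-5p and miR-449a-5p (r 0.98 each), which mark ciliated and spermatogenic cells. For miR-195a-5p they were miR-142a-3p, miR-142a-5p and miR-10a-5p (r 0.92, 0.91 and 0.89), and for miR-322-5p miR-143-3p, miR-449a-5p and miR-142a-3p (r 0.94, 0.94 and 0.91). All 18 libraries share the organ differences, so these r values are descriptions of the order of organs. With the means of the 6 groups taken out, miR-15a-5p still followed miR-19b-3p, miR-20a-5p and miR-18a-5p (r 0.95, 0.94 and 0.93), and without right lung 1 these were 0.86, 0.85 and 0.82. MiR-16-5p then followed miR-425-5p and miR-19b-3p (r 0.89 and 0.88, and 0.75 and 0.72 without right lung 1). For miR-15b-5p, miR-195a-5p and miR-322-5p none of the names above stayed among the 3 closest. Their closest were then miR-1843b-5p, miR-96-5p and miR-7b-5p (r 0.76, 0.79 and 0.62). Among the members, miR-15a-5p and miR-16-5p deviated together (r 0.85, and 0.66 without right lung 1), as did miR-15b-5p and miR-16-5p (0.55, and 0.48 without it). The other cluster partners did not. Their r was -0.19 for miR-195a-5p and miR-497a-5p (-0.26 without it) and 0.02 for miR-322-5p and miR-503-5p (-0.08 without it). Some members of different clusters also deviated together, with r of 0.79 for miR-15a-5p and miR-497a-5p (0.59 without right lung 1). For miR-16-5p and miR-497a-5p r was 0.75 (0.53 without it) and for miR-15a-5p and miR-503-5p 0.71 (0.59 without it). Others deviated in opposite directions, most strongly miR-195a-5p and miR-322-5p (r -0.78, and -0.79 without right lung 1).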

How the data were processed

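Small RNA libraries of 18 mouse organs were used as deposited. RNA was isolated on spin columns and libraries followed the BGI-500 procedure, per the labels. Each library came with 1 deposited table of raw counts, whole numbers for each mature miRNA. The submitters' processing notes name GRCm38.p6; aligner, counting program and the treatment of reads matching several miRNAs were not given in the sources used here. Samples were grouped by the labelled organ and side, and the labels give no batch.

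Counts were scaled by TMM, filtered by filterByExpr and tested in edgeR 4.0.16 (R 4.3.3) with 6 group means, adjusted by Benjamini-Hochberg over 642 miRNAs at 0.05; sides were tested on the 6 libraries of an organ. Ratios used counts + 0.5 and exact permutation (scipy 1.17.1). The SEs given with edgeR were worked back from its test, as the absolute log2 fold change over the square root of the F statistic. DESeq2 1.42.0 was an alternative. Other miRNAs were named by fixed lists (opposite arms, X-linked neighbours, markers) and, for likeness, as the 3 highest r among miRNAs with a mean of at least 50 CPM. Members and lists were chosen with earlier results of these data known. Procedures were tested on simulated data. Depths and floors stand in the report.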

Additional observations from a re-analysis of the deposited data

Results flagged for a closer look

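In groups of 6 libraries, a library was singled out where its gap to the nearest other library, divided by the range of the group, exceeded 0.625. Of 48 groups looked at, 5 had such a library. The limit is set so that about 1 in 20 independent groups pass it by chance. These groups were not independent, as the ratios were made from the same miRNAs as the levels, so the count was not compared with that share. Right lung 1 accounted for 3 of the 5: miR-15a-5p at 699 CPM, miR-16-5p at 12312 CPM, and the log2 ratio of miR-16-5p to miR-15a-5p at 4.14, the first 2 lower and the last higher than in any other lung. In right eye 3, miR-15b-5p was at 406 CPM, above the 235 to 299 CPM of the other eyes. In right eye 1, miR-195a-5p was at 586 CPM, above the 252 to 323 CPM of the other eyes.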

How the results depend on the processing

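The counts of members called between organs held within 1.5 times under every alternative run, with 1 exception: with right libraries only, 0 members were lower in testicle than in lung, against 3 in the full comparison. In testicle against lung, values of 3 members changed sign, 1 of them called in the full comparison (miR-322-3p, -0.65). MiR-322-5p was at 0.035 with 1 name kept per set of identical names and 0.14 with right libraries only, miR-322-3p was at 0.011 with right libraries only, and miR-503-5p was at -0.0561 with library totals, -0.24 and -0.17 with left lung 1 and left testicle 1 as TMM reference, and -0.016 with TMMwsp. Of values of left against right that were never called, miR-195a-5p in the testicle was at -0.016 without the filter, miR-497a-5p in the testicle at -0.030 with RLE factors, -0.0800 without the filter and -0.041 with DESeq2, and miR-322-5p in the testicle at 0.071 with library totals. With library totals, miR-322-5p in the lung was at 0.048, and miR-15a-5p and miR-497a-5p in the eye were at 0.14 and 0.12. The cause of these changes was not tested.

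Leaving out 1 library in turn, the members called in testicle against lung were 2 to 3 higher and 3 to 4 lower, in testicle against eye 8 higher, and in lung against eye 7 to 8 higher. Signs changed within these ranges in testicle against lung: -0.63 to 0.029 for miR-322-5p, -0.27 to 0.50 for miR-503-5p and -0.73 to 0.053 for miR-351-3p. In left against right testicle they were -0.31 to 0.51 for miR-195a-5p, -0.031 to 0.055 for miR-497a-5p and -0.24 to 0.12 for miR-322-5p, and in lung -0.18 to 0.30 for miR-195a-5p and -0.010 to 0.74 for miR-503-5p. In the eye they were -0.091 to 0.10 for miR-15a-5p, -0.31 to 0.044 for miR-15b-5p, -0.13 to 0.039 for miR-497a-5p, -0.038 to 0.16 for miR-322-5p and -0.34 to 0.39 for miR-503-5p. Among ratios they were -0.20 to 0.11 for miR-16-5p to miR-15a-5p in lung against eye, -0.24 to 0.12 for miR-322-5p to miR-503-5p and -0.042 to 0.26 for miR-195a-5p to miR-16-5p in testicle against eye.

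Replicate numbers are shared by the groups, and the pairing was checked. Deviations of same-numbered left and right libraries correlated at 0.02 to 0.24 for testicles, -0.02 to 0.40 for lungs and -0.42 to -0.11 for eyes. The best match of a library on the other side had its own number for 2 of 3 left and 3 of 3 right testicles. For lungs this was 2 of 3 on each side, and for eyes 0 of 3 on each side. The check did not settle whether the numbers pair samples, and the main tests left them out. With the number as a replicate block, the members called were 3 higher and 3 lower in testicle against lung, 8 higher in testicle against eye and 7 higher in lung against eye, as without it. Of the 24 ratio differences 12 passed with the block, against 14 without it; those that did not, both in testicle against lung, were miR-15b-5p to miR-15a-5p (adjusted p 0.051 with the block, exact permutation) and miR-322-5p to miR-322-3p (adjusted p 0.063 with the block, exact permutation).

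Depth limits the scarce miRNAs: miR-16-2-3p had 63 counts summed over testicle libraries, and miR-503-5p had as few as 8 counts in an eye library. The p values measure the spread between these libraries, and whether these are separate animals is not in the labels. Ligation and amplification favour some miRNAs over others, so levels of different miRNAs within a library are less comparable than 1 miRNA between libraries.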
